A study of Mus musculus with 8 samples.

Results

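The plasmacytoid dendritic-like cells of the mouse tongue epithelium were 103 of the 42550 cells in the 8 deposited matrices. They were chosen by expression. Of the 25199 cells with 1000 to 5500 genes, at most 30000 UMIs (unique molecular identifiers, counts of single RNA molecules) and at most 7% mitochondrial UMIs, 11763 had less than 0.5% of their UMIs from Krt5, Krt14, Krt15, Krt13 and Krt6a and are called keratin-low here. The 103 were the keratin-low cells that held a UMI of at least 2 of Siglech, Klk1 and Cox6a2 and none of Cd3e, and they made up 0.876% of the keratin-low cells. The levels of these genes, and any contrast with the other cells, are therefore a description and carry no test.

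Plasmacytoid dendritic cells are rare dendritic cells that circulate in blood and enter inflamed tissue. They sense viral RNA and DNA with the endosomal receptors TLR7 and TLR9, which UNC93B1 carries to the endosome, and through IRF7 they can release large amounts of type I interferon. Their fate depends on the E-box binding factor TCF4 (also called E2-2) and on low levels of its antagonist ID2, and they share traits with B cells and plasma cells, such as rearranged immunoglobulin genes and an enlarged endoplasmic reticulum.

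Single cells were taken 15 days after induction from tongue epithelium and sorted for viability. All mice carried Krt14-CreERT and LSL-rtTA, and per the study's methods also the reporter tetON_H2B-GFP. The N group had no further transgene, E carried tetON_E6-E7 (the oncogenes of human papillomavirus 16), Y carried tetON_YAP1S127A (a constitutively active YAP) and EY carried both, with 2 libraries a group. Tamoxifen into the tongue switched on rtTA in cells with an active Krt14 promoter, and doxycycline chow switched the transgenes on, so the transgenes were directed to epithelial cells and not to the cells described here. The title of N2 names 2 animal numbers and may pool 2 mice. Per the study's methods the mice were littermates 8 to 16 weeks old, in groups balanced for age and sex. Xist, the RNA of the inactive X chromosome, was found in all 25 cells of Y2 and in no other of the 103, whereas the Y-linked Ddx3y was found in cells of every other library with members and in none of Y2. Sex and the difference between Y2 and the other libraries cannot be told apart.

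The 103 cells held 828261 UMIs. Their UMI count had a median of 7763 (range 1983 to 17411) and their gene count a median of 2362 (1071 to 3899), against a median of 6845 UMIs in the other keratin-low cells. All 103 held Siglech, a sialic acid-binding surface receptor, and 88 held all 3 genes of the rule. Of the other 15 cells, 8 lacked Cox6a2 and 7 lacked Klk1. Of the cells with 2 or more of these genes, 1 was left out for Cd3e, 2 for keratins and 20 for the limits on genes, UMIs and mitochondrial share, 19 of these for the mitochondrial share. Across libraries 235 barcodes occurred more than once. A single one of the 103 cells carried such a barcode, and no 2 of the 103 shared theirs.

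Siglech, Klk1 (a kallikrein protease) and Cox6a2 (a subunit of cytochrome c oxidase known from muscle) lie on chromosome 7 of the mouse genome (GRCm38), at 55768178 to 55778925, 44225360 to 44229618 and 128205435 to 128206387. The 250 bases before the RefSeq start of Siglech, of Klk1, of the neighbouring kallikrein Klk1b27 (chromosome 7, 44052290 to 44056712) and of the chemokine receptor gene Ccr9 (chromosome 9, 123678439 to 123784330) are shown because 2 of these genes are in the rule, the other two are the kallikrein neighbour and the most widely detected of the leading genes, and TCF4 binds E-boxes. They are RefSeq sequences of GRCm38.p6, plus strand, at chr7:55767934-55768183, chr7:44225110-44225359, chr7:44052040-44052289 and chr9:123766961-123767210, with the E-box CANNTG, which reads the same on both strands, in capitals. The gene spans come from GENCODE, and the starts can differ. The Ccr9 window, placed by RefSeq, lies inside the span given, and the Siglech window reaches a few bases into its span.
Siglech: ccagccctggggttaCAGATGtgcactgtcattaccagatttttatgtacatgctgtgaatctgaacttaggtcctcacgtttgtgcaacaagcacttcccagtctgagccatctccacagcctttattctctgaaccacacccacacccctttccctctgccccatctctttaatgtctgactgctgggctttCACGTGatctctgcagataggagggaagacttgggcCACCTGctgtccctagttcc
Klk1: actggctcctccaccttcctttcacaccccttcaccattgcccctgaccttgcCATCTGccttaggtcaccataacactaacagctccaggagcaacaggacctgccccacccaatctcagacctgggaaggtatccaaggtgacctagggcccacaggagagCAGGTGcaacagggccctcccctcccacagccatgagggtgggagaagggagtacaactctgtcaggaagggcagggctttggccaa
Klk1b27: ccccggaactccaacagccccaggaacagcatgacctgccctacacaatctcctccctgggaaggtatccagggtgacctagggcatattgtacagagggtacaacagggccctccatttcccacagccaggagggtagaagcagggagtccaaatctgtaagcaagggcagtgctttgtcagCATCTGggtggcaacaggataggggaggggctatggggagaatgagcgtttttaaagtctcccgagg
Ccr9: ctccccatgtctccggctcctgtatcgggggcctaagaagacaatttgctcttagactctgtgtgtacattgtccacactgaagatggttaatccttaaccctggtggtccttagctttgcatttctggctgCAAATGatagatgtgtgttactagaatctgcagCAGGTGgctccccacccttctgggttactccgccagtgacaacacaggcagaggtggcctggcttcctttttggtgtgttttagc

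Siglech had 3 E-boxes in this window, Klk1 had 2, Klk1b27 had 1 and Ccr9 had 2. Of 27025 promoter windows of the same length 66.0% held at least 1 and 12.1% held 3 or more, so a single match is common. In the last 300 bases of the longest Klk1 transcript, 4 of 241 windows of 60 bases (1.66%) also occurred in a transcript of another gene, those of Klk1b21 and Klk1b3, and 2 of 241 did so for Klk1b27. For Siglech the number was 11 and for Cox6a2 it was 0. How the authors' counting treated such reads is not given in the sources used here. Klk1b27 was found in 71 of the 103 cells, 68 of which also held Klk1.

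A list of 34 further genes known for plasmacytoid dendritic cells was used to describe the cells. It was chosen with earlier results of these data known and is no independent check of the label. It also holds Klk1b27, the kallikrein neighbour of the rule gene Klk1. A median of 26 of the 34 was detected per cell (range 17 to 33), against a median of 6 in the other keratin-low, Cd3e-negative cells. Of the 34 genes, 33 were higher in the 103 cells than in the other keratin-low cells, 25 of them at least 10 times, and 30 were detected in at least 50% of the cells. Among the 8359 genes with 10 CPM (UMIs scaled to the summed depth of the cells) or more in either set, 54.8% were higher and 2.51% were at least 10 times higher. The cell with 17 identity genes was the shallowest of all, a cell of N1 with 1983 UMIs. The next lowest cell had 20.

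Just outside the rule lay 131 cells with exactly 1 of the 3 genes. They held a median of 7 identity genes, and 101 of them had Siglech only, at a median of 1 UMI, against 15 UMIs among the 103. Of these 101, 59.4% held Cd207, 80.2% held Csf1r and 86.1% held Epcam, genes that Langerhans cells express, and 10.9% held Ccr9. Just inside the rule, the 15 cells with exactly 2 of the 3 genes held a median of 24 identity genes, none held Cd207 or Csf1r, and 93.3% held Ccr9. In all, 4 cells outside the rule held 20 or more identity genes.

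**Figure D1:**
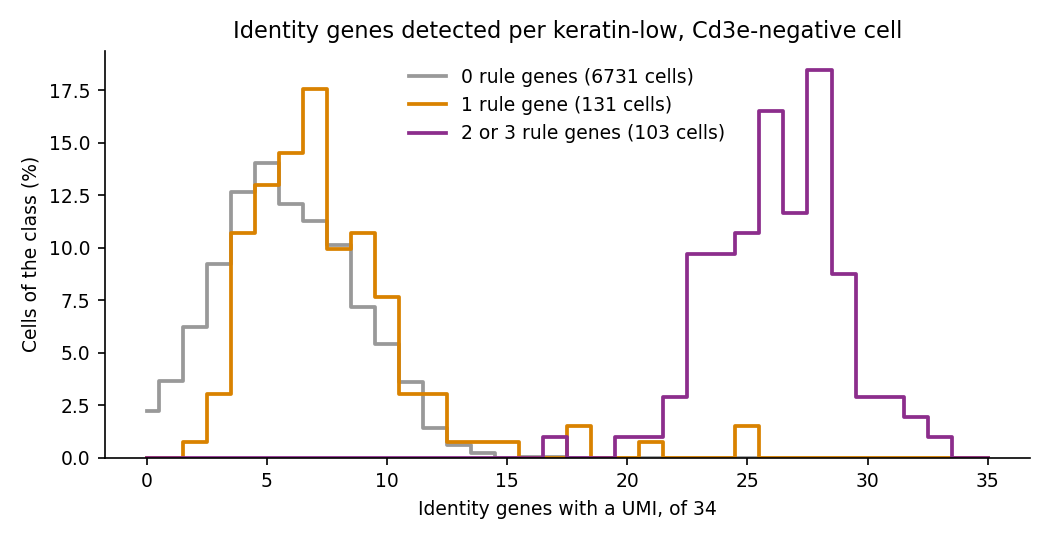
Number of the 34 identity genes with a UMI per keratin-low, Cd3e-negative cell (x axis) against the percent of cells of each class (y axis); lines stand for cells with 0 (6731 cells), 1 (131 cells) and 2 or 3 (103 cells) of Siglech, Klk1 and Cox6a2. The 103 cells sit between 17 and 33 identity genes, and the cells with 1 rule gene mostly lie with those that have none.

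The 3 genes of the rule were found in every library with members. In the order N1, N2, E1, E2, Y1, Y2 and EY1, which holds for every list of 7 values here, summed Siglech stood at 2224, 2161, 2324, 2745, 2066, 1799 and 1753 CPM. Klk1 stood at 2817, 1063, 2725, 1489, 1656, 1679 and 2481 CPM. Cox6a2 stood at 1038, 1926, 1602, 686, 1509, 720 and 165 CPM, so it spread more widely than Siglech, and the 2 cells of EY1 were the lowest. In the other keratin-low cells these genes were at 2.28, 0.489 and 0.229 CPM. Siglech was found in 0.317% of 4739 T cells (Cd3e with Cd3d or Cd3g, median 5571 UMIs), in 10.4% of 201 cells with conventional or migratory dendritic markers and in 20.2% of 287 cells with Langerhans markers, whose medians were 14023 and 13462 UMIs. Klk1 was found in none of those dendritic cells and in 0.348% of the Langerhans cells.

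Among transcription factors, Tcf4, the master factor of this lineage, was detected in 102 of 103 cells. It stood at 1433, 1464, 1650, 1268, 1248, 1456 and 827 CPM, against 44.2 in the other keratin-low cells. Irf8, needed for dendritic cell development, was found in all 103 cells, Bcl11a, which sustains Tcf4 in these cells, in 88, Runx2, which helps them leave the bone marrow, in 84 and Spib, an Ets factor of plasmacytoid dendritic and B cells, in 77. Spib was 634 times higher than in the other keratin-low cells, with 200 to 322 CPM in the 5 libraries that held 5 or more of the cells (N2, E1, E2, Y1 and Y2). Id2, the antagonist of TCF4, went the other way. It was found in 27.2% of the cells at 50.7 CPM, whereas 88.6% of the conventional or migratory dendritic cells held it, at 693 CPM. Batf3 and Zbtb46, factors of conventional dendritic cells, were found in 1 and 4 of the 103 cells. Of the 17 factors of the list, 10 were higher than in the other keratin-low cells, near the share of all genes (54.8%).

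The genes that most set the cells apart, by their ratio to the other keratin-low cells among genes found in at least 30% of them, were led by Dntt and Iglc3. Dntt, the terminal transferase that adds bases at immunoglobulin and T-cell receptor joints, was found in 64.1% of the 103 cells and in 0.0172% of the others. It stood at 346, 349, 205, 244, 167, 268 and 0 CPM, so every library but EY1 held it. Iglc3, an immunoglobulin lambda constant gene, was found in 86 cells, at 384 to 674 CPM in the 5 larger libraries. Ccr9, the receptor that guides these cells to the gut and thymus, was found in 102 cells and stood at 1.66 CPM in the others. The 25 leading genes also held Cd300c, Cd209d, Havcr1, Lefty1, Upb1, Smim5 and Mzb1, which were on the list of identity genes, and Foxr1, Gfra3, Cdh5, Sh3bgr, Adam11, Atp2a1, Nrxn2, Paqr5, Pdzd4, Eldr, Gm21762 and Gm12253, beside Spib, Bcl11a and Klk1b27. The mean difference within a library in the share of cells with a UMI was taken over the 5 larger libraries. By this measure the genes most like the rule were Ccr9 (99.1 points), Smim5 (91.6), Rnase6 (88.9), Atp1b1 (86.7) and Mef2c (84.9). Of the leading genes, 15 had a promoter window, and 13 of those windows held an E-box, beside 66.0% of all windows. This difference was not tested.

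Some genes usually read as B-cell, T-cell, muscle or endothelial genes were detected, while other markers of the same lists had no UMI. Ighm, the mu heavy chain constant gene, was found in 101 cells and Igkc, the kappa constant gene, in 50. Cd79b was found in 30, whereas Cd79a, Ms4a1, Pax5 and Ebf1 had no UMI, which allows up to 2.91% of cells with a UMI and sets no limit on cells expressing them. Some light chain constant gene was found in 90 cells, and 46 held Igkc together with a lambda gene. Cd4 was found in 47 cells, Cd8a in 48 and Cd8b1 in 47, with 29 cells holding both Cd8 genes. Cd3d was found in 3.88% of the cells, Cd3g in 1.94% and Trac in 0.971%. Cd3e was 0 by the rule. Of the 25 leading genes, Atp2a1, the calcium pump of fast muscle, was found in 68.0% and Sh3bgr in 57.3%, while 7 of 10 muscle markers, Ckm, Acta1 and Des among them, were at 0 and their summed level was 10.9 CPM. Cdh5, the endothelial cadherin, was found in 46.6%, and of the other endothelial markers Pecam1 was found in 39.8%, Kdr in 13.6% and Emcn in none. The 4 endothelial markers summed to 214 CPM against 27.5 in the other keratin-low cells, with 3 of the 4 higher. Of 11 gland markers 8 were at 0, and their summed level was 8.45 CPM against 1708 in the other keratin-low cells. The B-cell list ranged from 776 to 1562 CPM over the 5 larger libraries and the T-cell list from 291 to 862.

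**Figure D2:**
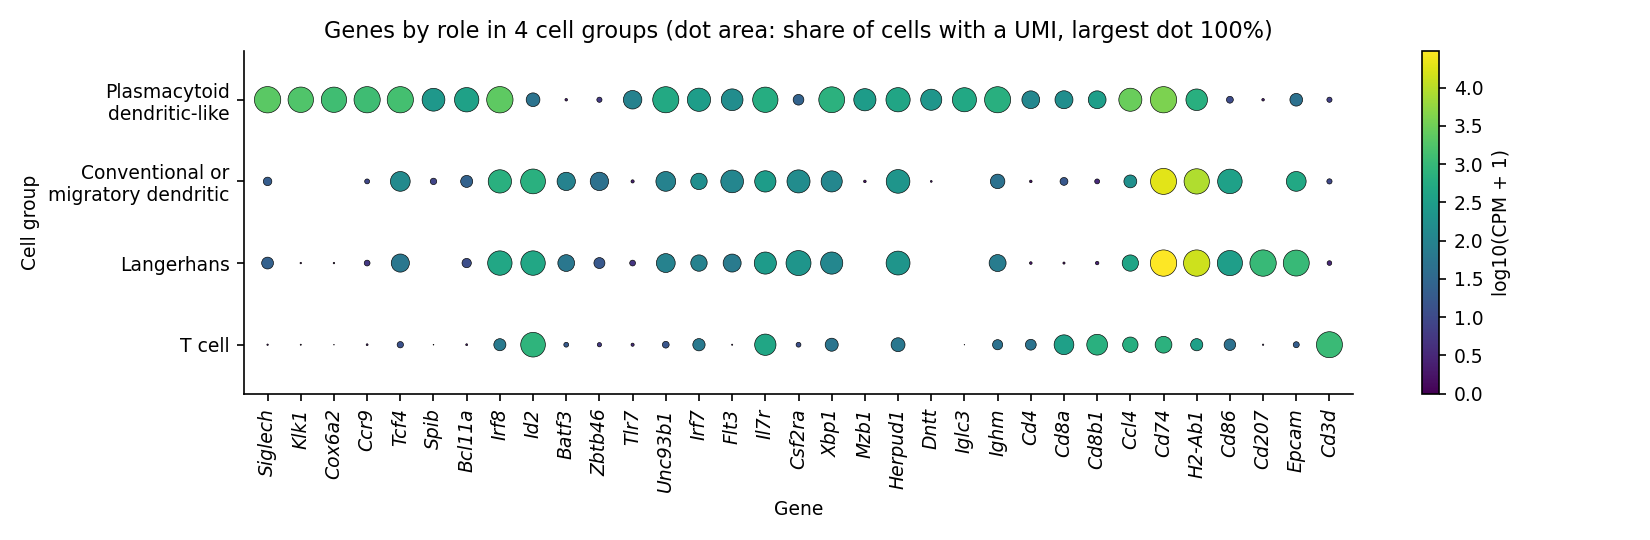
Dot plot of 33 genes (x axis) in the 103 plasmacytoid dendritic-like cells and 3 other cell groups (y axis); dot area is the percent of cells with a UMI and colour is log10(CPM + 1). The rule genes, Ccr9, Dntt and Iglc3 stand out in the top row, where Id2, Cd86 and Cd74 are lower than in the dendritic and Langerhans groups.

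Of 20 genes for sensing nucleic acids and relaying the signal, 10 were higher than in the other keratin-low cells, a share below that of all genes (54.8%), and 6 were found in under 5% of the 103 cells. Of the genes that relay the signal, Myd88, Traf3, Traf6, Ikbke and Irf5 were lower than in the other cells. Ikbke, Traf3 and Traf6 rested on 4, 7 and 11 UMIs in the 103 cells. Irak1 (55.5 against 31.0 CPM) and Chuk (44.7 against 24.2) were higher, and Irak4 was near equal (16.9 against 16.6). Tlr7 was found in 51 cells, at 49.4, 87.1, 117, 116, 96.8, 74.2 and 66.2 CPM, against 1.70 in the conventional or migratory dendritic and 3.85 in the Langerhans group. Unc93b1 was found in 101 cells and Irf7 in 80, but Tlr9 in 3.88% only. Of the 14 interferon genes on the list 12 had no UMI, all Ifna genes and Ifnb1 among them, which allows up to 3.62 CPM over the summed cells, and Ifnl2 and Ifng each had a UMI in 1 cell of Y2. Not detecting these transcripts is limited by 103 cells and does not show that none was made.

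Interferon-stimulated genes varied between libraries more than identity genes did. Their summed level was 939, 1874, 3398, 2478, 738, 2821 and 728 CPM. Both E libraries thus lay above both N libraries, and the Y libraries lay on either side of N. Ifi27l2a was the highest of them, with 297, 1176, 2217, 1326, 431, 1930 and 463 CPM. Isg15, a ubiquitin-like protein, was found in 2 of 11 cells of N2, 10 of 20 of E1, 4 of 7 of E2, 5 of 34 of Y1 and 11 of 25 of Y2. Of the 20 such genes that were measured, 4 were higher than in the other keratin-low cells. The interferon receptor genes Ifnar1 and Ifnar2 were found in 85 and 97 cells.

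Endoplasmic reticulum genes were high. Of 23 genes for protein import, folding and export, 22 were higher than in the other keratin-low cells, and the summed level was 8575 to 10508 CPM in the 5 larger libraries, lowest in N2 and highest in E1, against 4137 in the other cells. Xbp1, the factor that enlarges this compartment in secretory cells, was found in 99 cells at 558 to 834 CPM in these 5 libraries, against 116 in the conventional or migratory dendritic group. Mzb1, a chaperone of immunoglobulin assembly, was found in 73 cells and in 0.0429% of the others.

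Antigen presentation genes were low for dendritic cells. None of 11 class II and costimulatory genes was higher than in the other keratin-low cells. H2-Ab1 stood at 3163, 697, 615, 861, 718, 366 and 0 CPM, against 8885 in the conventional or migratory dendritic and 13537 in the Langerhans group. The high N1 value came from 4 cells. H2-Eb1 was at 0 in the 25 cells of Y2 and stood at 34.9 CPM in E2, and at 254 to 366 in N2, E1 and Y1. The other keratin-low cells were also low in these libraries, with 101 CPM in Y2 and 95.9 in E2 against 1640 to 1934 in N1, N2, E1 and Y1, so these low values were not particular to the 103 cells. Cd80 was at 0, Cd86 was found in 6.80% of the cells, and Ciita in 0.971%. All 3 of H2-Aa, H2-Ab1 and H2-Eb1 were found in 38 cells and none of them in 23.

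Of 16 trafficking genes 8 were higher than in the other keratin-low cells, near the share of all genes (54.8%). Flt3, the receptor of the growth factor of dendritic cells, was found in 70 cells and Il7r in 95. Selplg, the P-selectin ligand, was found in 99 cells, Cxcr3 in 39.8% and Ccr2 in 62.1%. Csf1r was found in 1.94% and Ccr7, which guides dendritic cells to lymph nodes, in 0.971%. Of cytokine genes, Ccl4, a chemokine, was found in 79 cells, and Il12a in 27, while Il6 and Il12b were at 0. Ccl4 was also the most uneven gene between cells. With the 102 deepest cells thinned to 2000 UMIs each, its variance was 20.9 times its mean, against a median of 1.20 over 572 genes, and its count ran from 0 to 85. Of these 102 cells 64.7% held it after thinning and 76.7% of all 103 before. By library Ccl4 stood at 1928, 2091, 2471, 3257, 2460, 3718 and 5227 CPM, and the E and Y libraries overlapped. Mki67 was found in 2.91% of the cells and 6 of 10 cell cycle genes in under 5%.

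**Figure D3:**
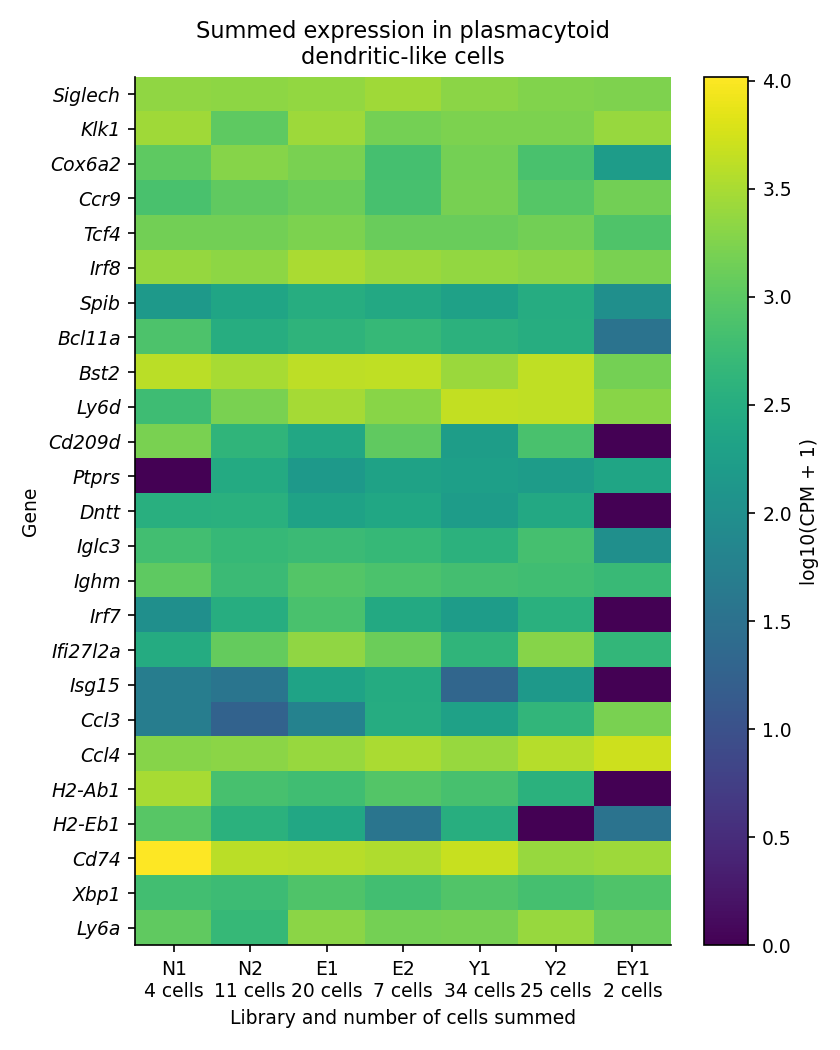
Heat map of log10(CPM + 1) summed over the plasmacytoid dendritic-like cells of each of 7 libraries (columns, with their number of cells) for 25 genes (rows). Siglech, Tcf4, Irf8 and Xbp1 differ little between libraries, whereas Isg15, Ccl3, Cd209d and H2-Eb1 differ, and the columns of N1 and EY1 rest on 4 and 2 cells.

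Markers of other cells differed by list. The 5 Langerhans markers summed to 11.6 to 80.1 CPM in the 5 larger libraries with Cd207 in 0.971% of the cells, and the 8 neutrophil markers to 11.4 to 227, with Csf3r, Ly6g and Cxcr2 at 0. The 10 monocyte and macrophage markers summed to 2158 CPM against 4671 in the other keratin-low cells, nearly all of it from Ly6c2 (1915 CPM) and Ccr2 (222), with the other 8 each found in under 5% of the cells. Keratins and other epithelial genes summed to 474 to 957 CPM against 834 in the other keratin-low cells, with E1 (957) and E2 (931) above that value, and Cdh1, found in 61.2% of the 103 cells, was the single epithelial marker that was higher. All 6 mast cell and basophil markers were at 0. Of the 9 T-cell genes, those of the receptor complex (Cd3d, Cd3g, Trac and Trbc2) were each found in under 5%. No doublet caller was run on so few cells.

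The share of plasmacytoid dendritic-like cells was lowest when both transgenes were present. Of the keratin-low cells they were 4 of 716 in N1 (0.559%, exact 95% interval 0.152 to 1.42) and 11 of 1418 in N2 (0.776%, 0.388 to 1.38). They were 20 of 783 in E1 (2.55%, 1.57 to 3.92) and 7 of 954 in E2 (0.734%, 0.296 to 1.51). In Y they were 34 of 4004 in Y1 (0.849%, 0.589 to 1.18) and 25 of 1248 in Y2 (2.0%, 1.30 to 2.94). In EY they were 2 of 1629 in EY1 (0.123%, 0.0149 to 0.443) and 0 of 1011 in EY2 (exact 95% interval 0 to 0.364), where 3 counts of the total would be 0.297%. These intervals cover counting error only. The E libraries differed from each other by more than these intervals, as did the Y libraries. Both EY libraries lay below the other 6 in share. The interval of EY1 overlapped those of N1, N2 and E2, however, and the interval of EY2 overlapped those of N1 and E2. Group N averaged 0.667% ± 0.154, E averaged 1.64% ± 1.29, Y averaged 1.43% ± 0.816 and EY averaged 0.0614% ± 0.0868 (SD over 2 libraries each). With all cells within the limits as the denominator, epithelial cells included, EY1 stood at 0.110%, above the 0.0943% of N1, so EY then lay below the other 6 in EY2 only. By this denominator E1 (0.403%) and E2 (0.461%) had overlapping intervals.

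Averaged over libraries with and without the other transgene, neither transgene changed the share beyond the spread between libraries. Y against N and E against N were not tested separately. With YAP1 S127A it averaged 0.744% ± 0.919 and without it 1.16% ± 0.937 (SD, n = 4 each), which is -0.412 points with p = 0.543 in a two-sided exact permutation test (70 labellings) and 0.657 after adjustment over both comparisons. With E6-E7 it averaged 0.853% ± 1.18 and without it 1.05% ± 0.649, which is -0.194 points (p = 0.657 by the same exact permutation test, also after adjustment). Adding YAP1 S127A went with a higher share where E6-E7 was absent, both Y libraries being above both N libraries, and with a lower one where it was present, both EY libraries being below both E libraries. The difference between these differences, a contrast chosen after the shares were seen, was -2.34 points (two-sided exact permutation test, p = 0.0571, where the smallest possible is 0.0286). A share can fall because other cells rise. Cells with 1% or more of their UMIs from S100a8 and S100a9, genes of neutrophils, were most frequent in EY, and with these left out, a denominator also chosen after the shares were seen, the shares were 0.271% (2 of 739) in EY1 and 0 of 636 in EY2, and the contrast was -2.34 points (exact permutation p = 0.0571).

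**Figure D4:**
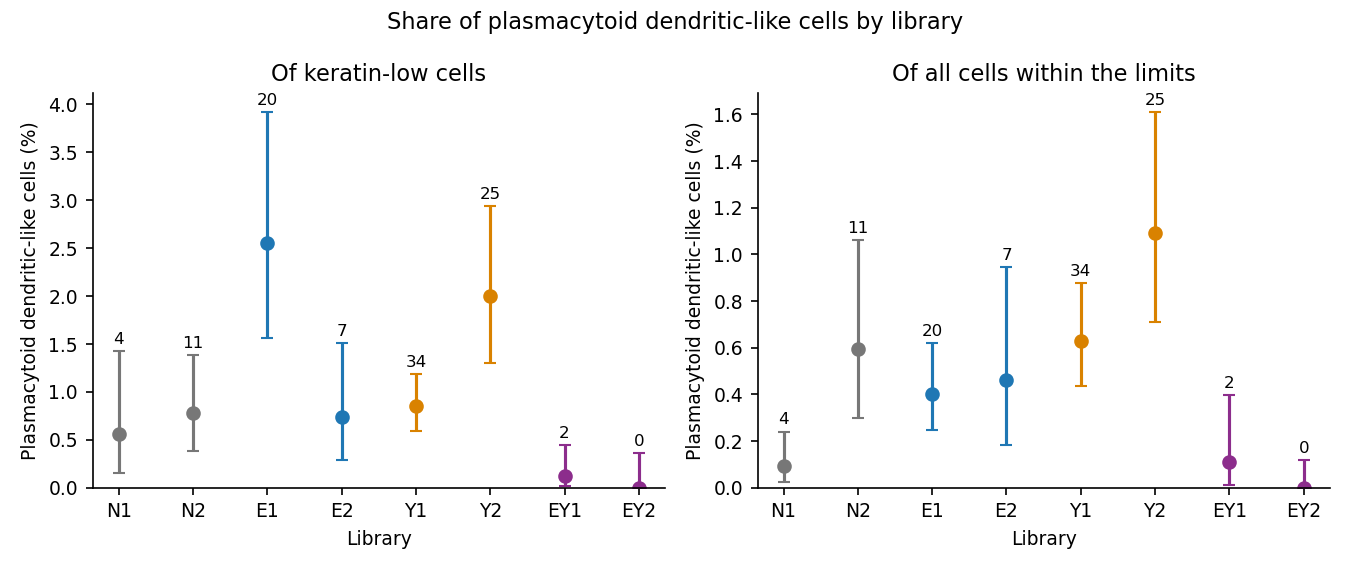
Percent of plasmacytoid dendritic-like cells (y axis) in each library (x axis), of keratin-low cells on the left and of all cells within the limits on the right; points are shares, bars exact 95% binomial intervals, and numbers count the cells. On the left the points of EY1 and EY2 lie below those of the other 6 libraries, with intervals that overlap those of N1 and E2. On the right N1 (0.0943%) is as low as EY1 (0.110%).

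Expression was compared between genotypes on UMIs summed per library, over the 5 libraries with at least 5 of the cells (N2, E1, E2, Y1 and Y2), with edgeR's quasi-likelihood test and a term for each transgene. EY did not enter, and N2 alone stood for the absence of both transgenes, so each comparison was of 2 libraries with N2 and both share it. Of 2607 genes tested, 4 passed an adjusted p of 0.05 for YAP1 S127A (0.153%), 1 higher and 3 lower, and 3 passed for E6-E7 (0.115%), all lower. Ccl5 (a T-cell attractant), Gzma (a granzyme of killer cells) and AW112010 were lower in both comparisons, with edgeR adjusted p of 0.00199, 0.0133 and 0.0489 for YAP1 S127A and of 0.00271, 0.0384 and 0.0384 for E6-E7.

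These 3 calls rested on 1 cell. In N2 all 63 Ccl5 UMIs, 39 of 40 Gzma UMIs and 35 of 36 AW112010 UMIs came from a cell with 16105 UMIs and 3899 genes, the most genes of the 103. It also held 14 UMIs of Nkg7 and 2 of Klrb1c, genes of natural killer cells, beside 26 of Siglech and 27 of the 34 identity genes. The other 10 cells of N2 together held 0, 1 and 1 UMIs of the 3 genes, and all cells of E1 and E2 held 0. Without this cell no gene passed in either comparison of 2301 genes with edgeR (123 and 125 at an unadjusted p under 0.05) or with DESeq2 (18 and 29). Whether the cell was a doublet was not tested.

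Ly6a (Sca-1, a surface protein induced by interferon) was the gene called higher with YAP1 S127A. It stood at 1087, 497, 2070, 1501, 1539, 2502 and 1257 CPM, N1 and EY1 being outside the fit. N2 was thus the lowest of all 7 libraries, and N1 lay between N2 and the rest. The log2 fold change for YAP1 S127A was 2.10 ± 0.37 (SE, edgeR adjusted p = 0.0489). For E6-E7 it was 1.84 ± 0.37 (adjusted p = 0.107). With libraries of 1 or more of the cells included, N1 and EY1 with them, the YAP1 S127A value was 0.81 (edgeR adjusted p = 0.749), and without the N2 cell above it was 1.91 (adjusted p = 0.317). The edgeR adjusted p was 0.810 without E1 and 0.232 without E2. Per cell the median was 5, 1, 7.5, 8, 11.5, 17 and 19 UMIs.

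**Figure D5:**
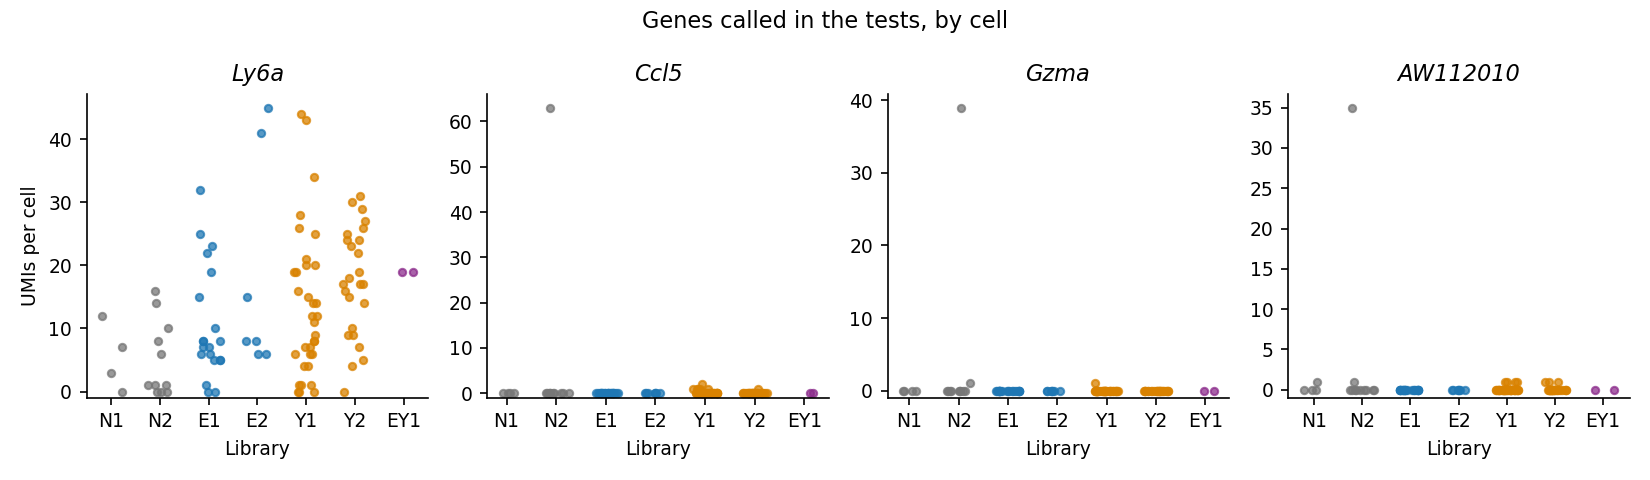
UMIs per cell (y axis, linear) of the 4 genes called in the tests, by library (x axis); each point is 1 of the 103 cells. Ly6a is spread over most cells of each library, whereas Ccl5, Gzma and AW112010 are high in a single cell of N2.

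None of the other listed genes passed. Of the 34 identity genes 32 were tested, and 0 were called for either transgene, and at an edgeR unadjusted p under 0.05 stood 3 higher and 2 lower for YAP1 S127A, where 4.83% of all genes did (2.61% higher, 2.22% lower), and 3 higher and 0 lower for E6-E7, where 5.79% did (2.76% higher, 3.03% lower). The median log2 fold change of the 32 was 0.14 for YAP1 S127A and 0.34 for E6-E7, beside 0.02 and 0.02 over all genes tested. The nearest to the threshold was Ly6d, a lymphoid surface gene that stood at 593, 1630, 3027, 2001, 4383, 4226 and 2018 CPM (log2 fold change for YAP1 S127A 1.48 ± 0.27, edgeR adjusted p = 0.0504). Ly6d was found in 99.1% of the 108 cells with 5% or more keratin UMIs, and the part of free epithelial RNA in its level was not tested. Vim, an intermediate filament gene, stood at 1087, 1307, 566, 617, 324, 423 and 33.1 CPM (log2 fold change for YAP1 S127A -1.74 ± 0.32, edgeR adjusted p = 0.0552). Tcf4 had a log2 fold change of -0.04 ± 0.28 for YAP1 S127A and -0.01 ± 0.28 for E6-E7. Of 20 tested endoplasmic reticulum genes, 16 had a positive value in each comparison, beside 1338 of all 2607 genes in each, and 0 were called. These comparisons share N2 as their reference, so the counts are not independent. Of 6 class II and costimulatory genes 0 and 1 had a positive value and 0 were called. Of 7 tested interferon-stimulated genes 0 were called, with medians of -0.09 for YAP1 S127A and 0.59 for E6-E7.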

How the data were processed

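The authors deposited filtered count matrices of UMIs per gene and cell from Cell Ranger 5.0.0 (per the file headers), from 10x 3' libraries whose kit is given as v2 in the labels and v3.1 in the study's methods, on mm10. Counts were used as deposited, with no correction for free RNA and no doublet calls. Gene positions came from GENCODE (GRCm38) and matched 32235 of 32285 features. The members and gene lists were chosen with earlier results of these data known. Shares were compared per library by exact permutation tests. UMIs summed per library over members were tested with edgeR 4.0.16 (filterByExpr, TMM factors 0.955 to 1.04, additive model, 2 residual degrees of freedom, Benjamini-Hochberg over all genes), with DESeq2 1.42.0 as an alternative. The tests were run on simulated data beforehand. Libraries held 2916 to 8139 cells. Animals, not cells, are replicates, and p-values measure the spread between libraries. In the gene tests this spread came only from E1 with E2 and Y1 with Y2. N2 was the single library without both transgenes, so no spread between N libraries was measured. Named genes were listed genes, called genes with 20 CPM or more in an arm and no overlap between arms, the 25 with the highest ratio to other cells (found in 30% or more of members) and the 10 most alike by share of cells. Ly6a, AW112010 and Vim were named after their values were seen. Alternatives changed the denominator, limits, rule, scaling, filter, tool or libraries.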

Additional observations from a re-analysis of the deposited data

Results flagged for a closer look

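Among the 4 libraries without YAP1 S127A, the share in E1 (2.55%) stood apart from the other 3, with a gap to the next of 0.891 of the range, above the 95% limit of 0.829. About 1 in 20 groups would pass this limit by chance, and 4 arms were looked at. These were shares of keratin-low cells. Of all cells within the limits, E1 stood at 0.403%, below N2 (0.595%) and E2 (0.461%) and above N1 (0.0943%). With a keratin limit of 2%, E1 stood at 0.819% and N2 at 0.687%. The high share of E1 thus depended on the denominator.

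The YAP1 S127A effect on the share differed with E6-E7 by -2.34 points, as every Y library lay above every N library and every EY library below every E library. The exact permutation p was 0.0571.

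Some barcodes that fell outside the cell limits held 2 or more of Siglech, Klk1 and Cox6a2. They were 0.0602% of all barcodes outside the limits in N1 (1 barcode) and 0.194% in N2 (4 barcodes). The percent was above both in E2 (0.215%, 3 barcodes) and in Y1 (0.256%, 7 barcodes). These are few barcodes, E2 had fewer of them than N2, and the difference was not tested.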

How the results depend on the processing

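No paired analysis was possible because the labels give no replicate number that groups share. The YAP1 S127A difference in share turned positive with all cells within the limits as denominator (0.0699 points) and with a keratin limit of 2% (0.0287). Leaving out each library in turn gave -0.832 to 0.0544 points, the positive value without E1, and for E6-E7 -0.761 to 0.125, positive without Y2 (0.125), EY1 (0.0493) or EY2 (0.0902). No p was under 0.05 for either. The contrast between the YAP1 S127A effects with and without E6-E7 was negative under all 17 alternatives, and passed 0.05 over cells with a Ptprc UMI (-2.56), thinned to 2000 UMIs (-2.28) and with a minimum of 500 genes (-2.09), and for 2 of the 8 libraries left out, E2 (-3.25) and Y1 (-2.92). Leaving out each library gave -3.25 to -1.43 points. The cause was not tested.

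The gene counts moved. For YAP1 S127A (4 genes) they were 2 by DESeq2, 21 with no filter on low counts, 2 with libraries of 1 cell or more (0 shared with the 4) and 0 to 22 without each library (0 without E1, 22 without Y1, 13 without Y2). For E6-E7 (3 genes) they were 1, 16, 0, 0 with at least 10 cells a library and 0 to 16 without each library (0 without E1 or E2, 14 without Y1, 16 without Y2). Without the N2 cell high in Gzma, an alternative chosen after seeing the data, all were 0 by edgeR and by DESeq2. In the settings where they were tested, the called genes kept their sign. Without N2 the model could not be fitted. Depth limits all of this: 103 cells, of which 4 and 2 in N1 and EY1.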
